A study of Mus musculus with 2 samples.

Results

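The genes described here build, load and control major histocompatibility complex (MHC) class II molecules. They were chosen by name, with earlier results of these data known but with no measured value in the rule. They are 10 of the 55536 annotated genes, all protein-coding. The group has 5 genes of chromosome 17 that encode class II chains (H2-Aa, H2-Ab1, H2-Eb1) and the peptide exchanger (H2-DMa, H2-DMb1), the invariant chain gene Cd74, the coactivator gene Ciita, and the 3 genes of the RFX complex (Rfx5, Rfxank, Rfxap). They were measured in bone marrow-derived macrophages, which are cells grown from the marrow of C57BL/6J mice, a strain with no engineered allele named in the labels. The cells were exposed to lipid A, the part of bacterial lipopolysaccharide that engages Toll-like receptor 4, at 100 ng/ml for 75 min. The RNA came from the chromatin fraction, which is rich in transcripts still being made or processed, and ribosomal RNA was depleted before sequencing. There was 1 group with 2 libraries, labelled as biological replicates 1 and 2, and no untreated, later or whole-cell library was analysed here, so nothing below is a response to lipid A. Both libraries carry the same donor label, and age and sex were not collected, so a spread between the libraries may be technical or a spread between cultures.

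Class II molecules are pairs of an alpha and a beta chain that present peptides from endosomes to CD4+ T cells. The invariant chain, encoded by Cd74, occupies the peptide groove and guides the pair to endosomes, where DM exchanges its last fragment for antigenic peptides. Transcription of these genes depends on RFX, which binds the X box of their promoters together with other factors, and on CIITA, the coactivator recruited there, which is itself regulated mainly by its own transcription. Macrophages are known for low basal class II expression that interferon gamma raises through Ciita. C57BL/6 mice carry the H-2b haplotype, which makes I-A but lacks a functional alpha gene for I-E, so H2-Eb1 has no partner chain in this strain.

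Summed over annotated genes, the estimated counts came to 21453617 in replicate 1 and 29638814 in replicate 2. Of these, the 10 members took 1345.99 counts in replicate 1, a share of 0.00627% (exact Clopper-Pearson 95% interval 0.00594 to 0.00662%), and 2098.51 counts in replicate 2, a share of 0.00708% (0.00678 to 0.00739%). A count of 0 allows up to 3 counts, or 0.140 and 0.101 CPM (counts scaled to the library's total), and intervals and floors cover counting error only. Macrophage identity was checked by markers: 9 of 10 macrophage genes were at 1 TPM or more in both libraries, with a median of 26.9 TPM in replicate 1 and 33.3 TPM in replicate 2. TPM is the transcript abundance per length, scaled to a fixed sum over everything in the table, and it is the unit of every level below unless another is named. Protein-coding genes held 14.0% of all TPM in replicate 1 and 24.98% in replicate 2, and 93.7% of the protein-coding genes at 1 TPM or more in both libraries had the higher TPM in replicate 2. Of the 6 members at that level in both, 4 had the higher TPM in replicate 2. Starting RNA was 250 ng in replicate 1 and 500 ng in replicate 2, and its part in any difference between the libraries was not tested.

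The X box named above, and the Y box that lies downstream of it in class II promoters, were looked for by their letters. H2-Ab1, Cd74, Ciita and Rfxap had no window and were not searched. The stretches shown are the 150 bases before a start site, taken from RefSeq on GRCm38.p6, 5′ to 3′ on the strand of the gene. They are from H2-Aa and H2-Eb1, 2 members near 1 TPM, and from H2-DMa, the member with the highest level. The H2-DMa stretch belongs to the start site at 34122832, and a further RefSeq start site is at 34125518. The annotated transcript H2-DMa-208, described below, starts upstream of both at 34119588, and its promoter was not searched. Capitals mark GNAAC, the core searched for as an X box, and GATTGG, the inverted CCAAT of the Y box that NF-Y binds.
H2-Aa (chr17:34287824-34287973, minus strand): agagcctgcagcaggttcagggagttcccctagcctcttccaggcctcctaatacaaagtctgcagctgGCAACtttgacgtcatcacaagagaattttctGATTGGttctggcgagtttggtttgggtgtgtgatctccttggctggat
H2-Eb1 (chr17:34305717-34305866, plus strand): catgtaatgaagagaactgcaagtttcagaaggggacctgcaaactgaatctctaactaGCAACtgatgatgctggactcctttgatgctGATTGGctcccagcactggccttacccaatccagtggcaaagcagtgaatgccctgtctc
H2-DMa (chr17:34122682-34122831, plus strand): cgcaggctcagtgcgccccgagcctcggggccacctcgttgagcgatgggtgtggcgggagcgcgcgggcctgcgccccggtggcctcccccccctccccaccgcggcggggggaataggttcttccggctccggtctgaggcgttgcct

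In H2-Aa the GNAAC match started at -81 and the GATTGG match at -49 from the start site. The pair stood at -91 and -60 in H2-Eb1, and at -94 and -62 in H2-DMb1, whose sequence is not shown. RefSeq promoter windows, from 250 bases before to 50 after a start site, were at hand for 6 of the 10 members. A GNAAC followed on the same strand by a GATTGG with 28 to 36 bases between their first letters was in H2-Aa, H2-Eb1 and H2-DMb1, and in none of the windows of H2-DMa, Rfx5 and Rfxank. That spacing was chosen after the sequences were seen. Over all 32851 promoter windows and on either strand, GATTGG was found in 16.1%, GNAAC in 84.8% and the spaced pair in 0.569%. A match is a description of letters and not a measured binding site.

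Class II transcripts were on chromatin at low levels, led by H2-DMa, Rfx5, Cd74 and Ciita and not by the classical chains. In replicate 1 the median over the 10 members was 1.45 TPM, and in replicate 2 it was 1.485 TPM. The median of all 22028 protein-coding genes was 0.14 and 0.23 TPM, and that of the protein-coding genes at 1 TPM or more in both libraries was 5.82 and 10.4 TPM. At 1 TPM or more in both libraries stood 6 of the 10 members, beside 34.7% of protein-coding genes. In the second quantification it was 8 of 10, beside 44.9%. That quantification was made by the authors from the reads and a transcript index, and the first from a transcriptome alignment. In the first, Rfxap, Rfxank and H2-DMb1 were under 1 TPM in both, and H2-Eb1 was above in one library and below in the other. In bulk RNA, fewer cells that express a gene and less RNA per cell cannot be told apart.

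**Figure D1:**
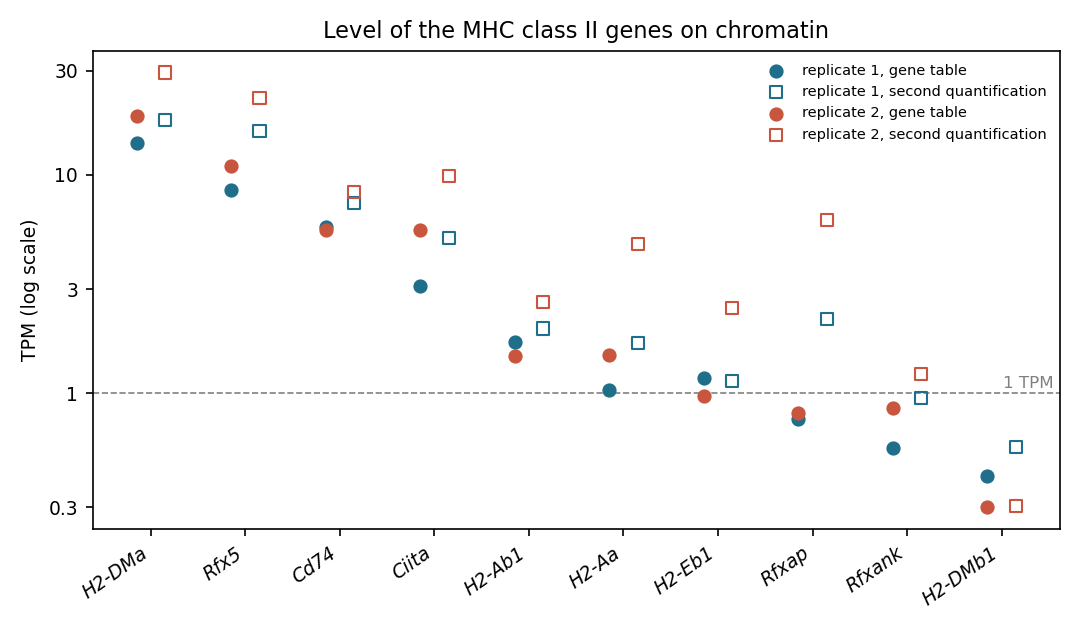
TPM (log axis) of each class II gene in each library, ordered by the mean of the gene table; filled circles are the gene table and open squares the second quantification. H2-DMa leads at 13.94 and 18.55 TPM, and H2-DMb1 is last at 0.42 and 0.30 TPM in the gene table.

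H2-Aa and H2-Ab1 encode the alpha and beta chains of I-A, the class II molecule of this strain. H2-Aa (ENSMUSG00000036594.15, mm10 chromosome 17, 34282744 to 34287823, minus strand) stood at 1.03 TPM in replicate 1 and 1.49 TPM in replicate 2, from 38 and 67 counts. H2-Ab1 (ENSMUSG00000073421.6, chromosome 17, 34257689 to 34269419, plus strand) stood at 1.72 and 1.48 TPM, from 33 and 37 counts. The ranges of the partner chains overlapped, so the libraries do not order them. H2-Eb1 (ENSMUSG00000060586.11, chromosome 17, 34305867 to 34316674, plus strand), the beta chain of I-E, was at 1.18 and 0.97 TPM, with 25 counts in each library. Its range overlapped that of H2-Aa and lay below that of H2-Ab1. Transcripts annotated as protein-coding held less: 0.60 and 0.63 TPM for H2-Aa, 0.40 and 0.80 TPM for H2-Ab1, and 0.18 and 0.42 TPM for H2-Eb1.

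The same 3 genes depended on how the reads were assigned. In the second quantification H2-Aa was at 1.69 and 4.82 TPM, H2-Ab1 at 1.98 and 2.62 TPM, and H2-Eb1 at 1.14 and 2.46 TPM. Over expressed protein-coding genes the median ratio of the second to the first quantification was 1.34 in replicate 1 and 1.51 in replicate 2. All 3 genes in replicate 2, and H2-Aa in replicate 1, were raised by more than that median. In H2-Aa the additional reads were on the retained-intron transcript H2-Aa-203, at 19.7 and 44.5 counts in the first quantification and 166 and 545 in the second. In H2-Eb1 they were on the protein-coding transcript H2-Eb1-203, at 7.76 and 8.53 counts in the first and 48.4 and 134 in the second. An antisense gene on the opposite strand, Gm20513, spans the start of H2-Eb1 without sharing exon bases; it was listed at 0 in both libraries of the first quantification and at 28.2 and 138 TPM in the second. The sources used here do not say whether reads were assigned by strand, and the part of Gm20513 in the H2-Eb1 values was not tested.

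The genes of the DM pair were far apart, with the alpha gene over 30-fold above the beta gene in each library when all transcripts are summed. In coding transcripts of the first quantification it was at least 9-fold above the beta gene, whose coding transcript had 2.68 and 11 counts. In the second, coding transcripts were at 1.12 and 2.21 TPM for the alpha gene and 0.086 and 0.30 TPM for the beta gene, under 9-fold in replicate 2. DM is an alpha and beta heterodimer that catalyses peptide exchange on class II molecules. H2-DMa (ENSMUSG00000037649.10, chromosome 17, 34119541 to 34139101, plus strand) was at 13.94 TPM in replicate 1 and 18.55 TPM in replicate 2, the highest of the 10 in both. H2-DMb1 (ENSMUSG00000079547.4, chromosome 17, 34153072 to 34160230, plus strand) was at 0.42 and 0.30 TPM, from 5.47 and 11 counts, the lowest of the 10 in both. Its close paralog H2-DMb2, which encodes another DM beta chain, was at 0.07 and 0.03 TPM, from 2.53 and 1 counts, few beside the 183.81 and 259.35 counts of H2-DMa.

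Most of the H2-DMa level was on annotated transcripts that are not protein-coding. The class "processed transcript", spliced RNA with no annotated reading frame, held 88.2% of the gene's transcript TPM in replicate 1 and 82.4% in replicate 2. The 3 protein-coding transcripts together were at 1.52 and 2.99 TPM, that is 10.9% and 16.1%, beside 0.08 and 0.30 TPM for the coding transcript of H2-DMb1. In coding transcripts, H2-DMa therefore ranged below Rfx5 (3.27 and 4.45 TPM), Cd74 (3.30 and 3.89 TPM) and Ciita (2.06 and 4.25 TPM) in both libraries. The place of Ciita rests on the single transcript Ciita-204, at 1.03 and 2.45 TPM, without which Ciita would be below H2-DMa in both. By counts, which do not weight short transcripts up, the processed transcripts held 67.4% and 54.1% of the H2-DMa reads. The short H2-DMa-203, of 350 bases, reached 5.08 and 8.63 TPM from only 17.8 and 34.6 counts.

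The leading H2-DMa transcript of replicate 1 starts inside a much more abundant gene. H2-DMa-208 (742 bases) was at 6.76 TPM in replicate 1 and 5.26 TPM in replicate 2, or 48.5% and 28.4% of the gene. It shares 313 of its exon bases with Brd2, the gene of a bromodomain protein on the opposite strand, which was at 240 and 382 TPM. H2-DMa transcripts that share no exon base with Brd2 summed to 7.19 and 13.3 TPM. All Rfx5 transcripts together, at 8.56 and 10.93 TPM, lay above that sum in replicate 1 and below it in replicate 2. Rfx5 also overlaps a gene on the opposite strand. Its transcripts that share no exon base with that gene summed to 3.94 and 4.04 TPM, below H2-DMa in both libraries. The part of Brd2 reads in H2-DMa-208 was not tested. In the second quantification this transcript was at 9.19 and 9.63 TPM, and another processed transcript, H2-DMa-204, at 4.11 and 10.3 TPM.

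**Figure D2:**
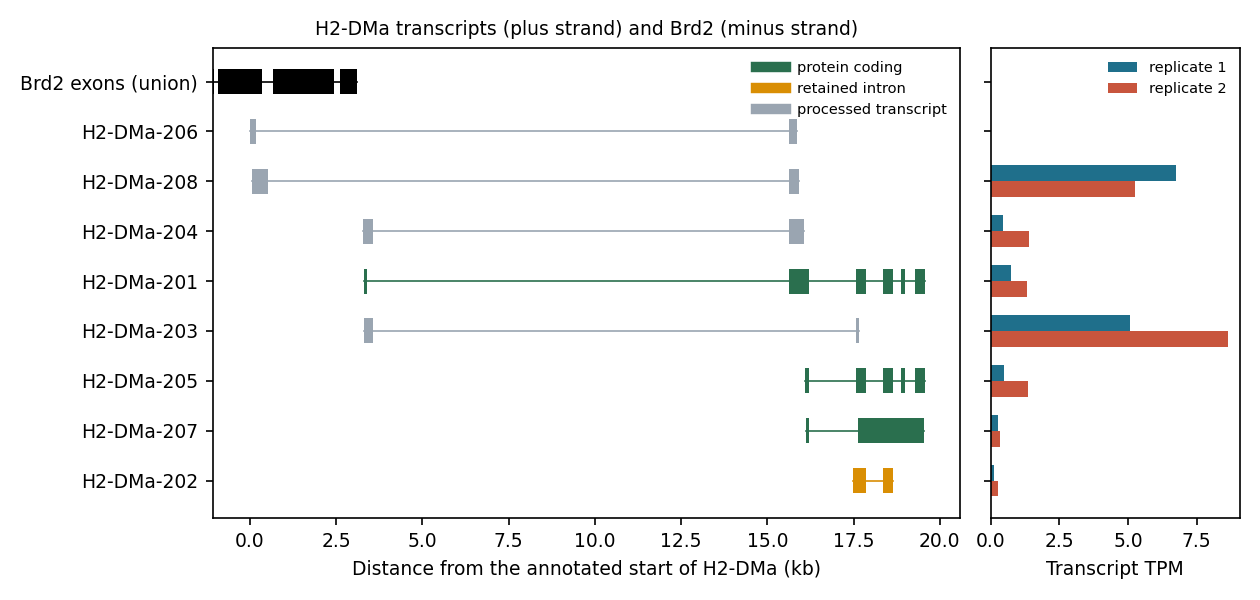
Exons of the annotated H2-DMa transcripts and of Brd2 by distance from the annotated start of H2-DMa (kb, boxes are exons, lines introns), with each transcript's TPM in the 2 libraries at the right. H2-DMa-208 and H2-DMa-203, both processed transcripts, carry most of the level, and the first exon of H2-DMa-208 lies within Brd2.

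Cd74 (ENSMUSG00000024610.15, chromosome 18, 60803848 to 60812652, plus strand) had the smallest spread of TPM relative to its mean among the members. It was at 5.77 TPM in replicate 1 and 5.59 TPM in replicate 2, from 136 and 154 counts. Both values lay above both of the I-A chains, at 5.68 ± 0.127 TPM (SD, n = 2) beside 1.26 ± 0.325 TPM for H2-Aa and 1.60 ± 0.1697 TPM for H2-Ab1. Protein-coding transcripts held 57.2% and 69.5% of its TPM, and the coding forms Cd74-201 (2.09 and 2.73 TPM) and Cd74-202 (1.21 and 1.16 TPM) kept the same order in both libraries. Since most expressed protein-coding genes had a higher TPM in replicate 2, an equal TPM is not a sign of equal abundance, as the ratios below show.

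Ciita (ENSMUSG00000022504.10, chromosome 16, 10480059 to 10528418, plus strand) was present in both libraries. It was at 3.09 TPM from 267 counts in replicate 1 and at 5.57 TPM from 499 counts in replicate 2. The second quantification gave 5.12 and 9.87 TPM. In the first quantification its range lay just under that of Cd74 and wholly above the classical chain genes. In the second, Cd74 was at 7.42 and 8.32 TPM, above Ciita in replicate 1 and below it in replicate 2. Dexi, a gene on the opposite strand that shares 329 exon bases with Ciita, was at 2.38 and 5.85 TPM. Ciita transcripts that share no exon base with Dexi summed to 1.03 and 2.45 TPM, a range that overlapped those of the classical chain genes. The part of Dexi in the Ciita level was not tested.

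Mouse Ciita is known for alternative promoters, pI, pIII and pIV, used in different cell types, with pIV the one that responds to interferon gamma. The annotation holds 3 first-exon places for its 8 transcripts, and these were not matched to the named promoters here. Transcripts from the first place, at the start of the gene, summed to 0.82 TPM in replicate 1 and 0.74 TPM in replicate 2. Those from the second place, 8119 bases downstream, summed to 0.77 and 1.91 TPM. Those from the third place, 9687 bases downstream, summed to 1.5 and 2.92 TPM, which was 48.5% and 52.4% of the gene. The third place was the highest in both libraries and in both quantifications, and the order of the first and second places changed between libraries in the first quantification.

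The lead of the third place rests largely on a single short transcript. Ciita-204, of 1620 bases and 2 exons, was at 1.03 and 2.45 TPM from 42 and 108 counts. Its second exon, of 1538 bases, shares no base with any other Ciita exon. Without it the third place would keep 0.47 TPM in each library in the first quantification, below both other places, and 2.39 and 3.93 TPM in the second, above them. By counts, the second place led with 108 and 304, ahead of the third with 81.5 and 122 and the first with 77.6 and 73.3. Which first exon led in the first quantification therefore differed between TPM and counts.

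**Figure D3:**
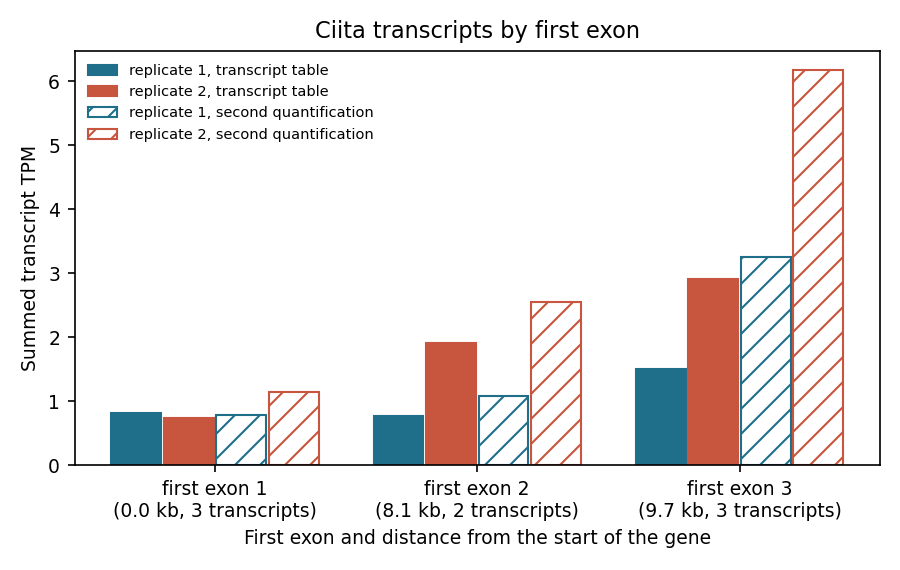
Summed TPM of Ciita transcripts that share each of 3 annotated first-exon places, named by their distance from the start of the gene; solid bars are the first quantification, hatched bars the second, blue replicate 1 and red replicate 2. The third place is highest in every series of bars, with 1.5 and 2.92 TPM in the first quantification.

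The RFX genes differed in level although their products form a single complex, with Rfx5 above each partner in both libraries and both quantifications. Rfx5 (ENSMUSG00000005774.12, chromosome 3, 94954075 to 94961561, plus strand), which encodes the DNA-binding subunit, was at 8.56 TPM in replicate 1 and 10.93 TPM in replicate 2. It had the most counts of any member, 598.94 and 936.6. Rfxank (ENSMUSG00000036120.10, chromosome 8, 70130794 to 70139154, minus strand), the ankyrin-repeat subunit, was at 0.56 and 0.86 TPM from 43.77 and 75.56 counts. Rfxap (ENSMUSG00000036615.6, chromosome 3, 54803115 to 54807791, minus strand), the RFX-associated protein, was at 0.76 and 0.81 TPM from 15 and 34 counts. The ranges of Rfxank and Rfxap overlapped, and both lay more than 10-fold under Rfx5. The gap to Rfxap was smaller in the second quantification, where Rfx5 was at 15.9 and 22.4 TPM and Rfxap at 2.19 and 6.24 TPM.

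In Rfxank and Rfx5 part of the exon sequence is shared with a neighbour on the opposite strand. Rfxank shares 1341 of its 3967 exon bases with Nr2c2ap, which was at 0.85 and 1.15 TPM. Rfx5 shares 1471 of 5497 with the antisense gene B230398E01Rik, at 0.67 and 1.54 TPM, well under Rfx5 itself. Of the Rfxap level in the second quantification, 90.9% and 91.0% was on processed transcripts. The protein-coding Rfxap transcripts were at 0.26 and 0.52 TPM in the first quantification and 0.20 and 0.56 TPM in the second.

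Retained-intron transcripts, annotated forms that keep an intron, were common among the members, as they were among expressed genes on chromatin. Over the 9 members with such a form, the median share of transcript TPM was 40.5% (range 1.16 to 65.8%). Over 5233 expressed protein-coding genes with such a form the median was 45.9%, with quartiles of 29.4 and 62.5%. Between the libraries Rfx5 was the most even, at 53.6 ± 0.393% (SD, n = 2), Rfxank was at 62.1 ± 15.8% and H2-Ab1 at 61.2 ± 22.0%. The share depended on the quantification: in the second it was 30.5% for Rfx5, 17.0% for H2-Eb1 in place of 65.8%, 79.0% for H2-Aa in place of 26.6%, and 8.30% for Ciita in place of 16.5%. For H2-DMb1 the share was 81.0% in replicate 1 and 0% in replicate 2, from 2.79 and 0 counts, which is too few to read. An unspliced precursor and a retained intron cannot be told apart in these tables.

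**Figure D4:**
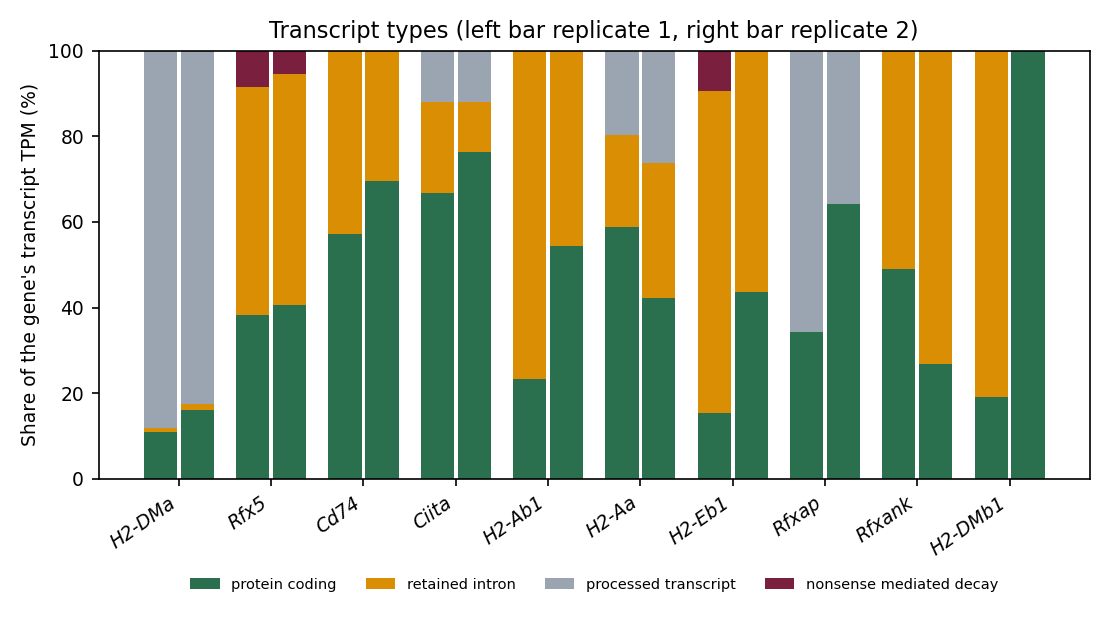
Share of each gene's transcript TPM (%) on each annotated transcript type, in the first quantification; the left bar of each pair is replicate 1 and the right bar replicate 2. H2-DMa is mainly processed transcripts (88.2% and 82.4%), and H2-DMb1, H2-Ab1, Rfxap and H2-Eb1 change most between the libraries in their coding share, each from fewer than 40 counts.

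After scaling for composition, the members lay mostly lower in replicate 2 than in replicate 1, which did not hold when libraries were scaled by total counts alone. The measure is the log2 ratio of TMM-scaled counts, replicate 2 over replicate 1, for genes with 20 or more counts in sum, with an exact conditional binomial 95% interval for counting error. It compares 2 libraries and carries no test. Of the 9 members with a ratio, 8 were below 0 with a median of -0.43, but only 3 were below 0 and the median was 0.18 when libraries were scaled by total counts alone. That scaling moved the median of all genes from 0.0066 to 0.62. Against the median of expressed protein-coding genes, which is -0.12 with TMM, 8 of the 9 members were lower. Their median difference of -0.31 is one that no scaling by library can change. As many expressed protein-coding genes lie below their median as above it. The quartiles of those genes were -0.48 and 0.27 with TMM, and the members' median of -0.43 lay between them. In the second quantification 7 of 10 members were lower than the median of expressed protein-coding genes, with a median difference of -0.38.

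Only H2-Eb1 passed 2-fold, at -1.08 (interval -1.94 to -0.22), which makes 1 of 9 members lower and 0 higher. Among all 14442 genes with a ratio, 5.59% were 2-fold or more lower and 8.67% higher. The same gene was at 0.042 in the second quantification, where no member passed 2-fold. H2-Ab1 was at -0.91 (-1.63 to -0.19) and Cd74 at -0.90 (-1.24 to -0.55), both intervals lying wholly below the median of expressed protein-coding genes. H2-DMa was at -0.58 (-0.86 to -0.30) and Rfx5 at -0.43 (-0.58 to -0.28), also below it. The intervals of Rfxank, H2-Aa, Ciita and Rfxap held that median, with Ciita the most precise at -0.17 (-0.39 to 0.046). H2-Aa changed sign with the quantification, from -0.26 to 0.42.

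**Figure D5:**
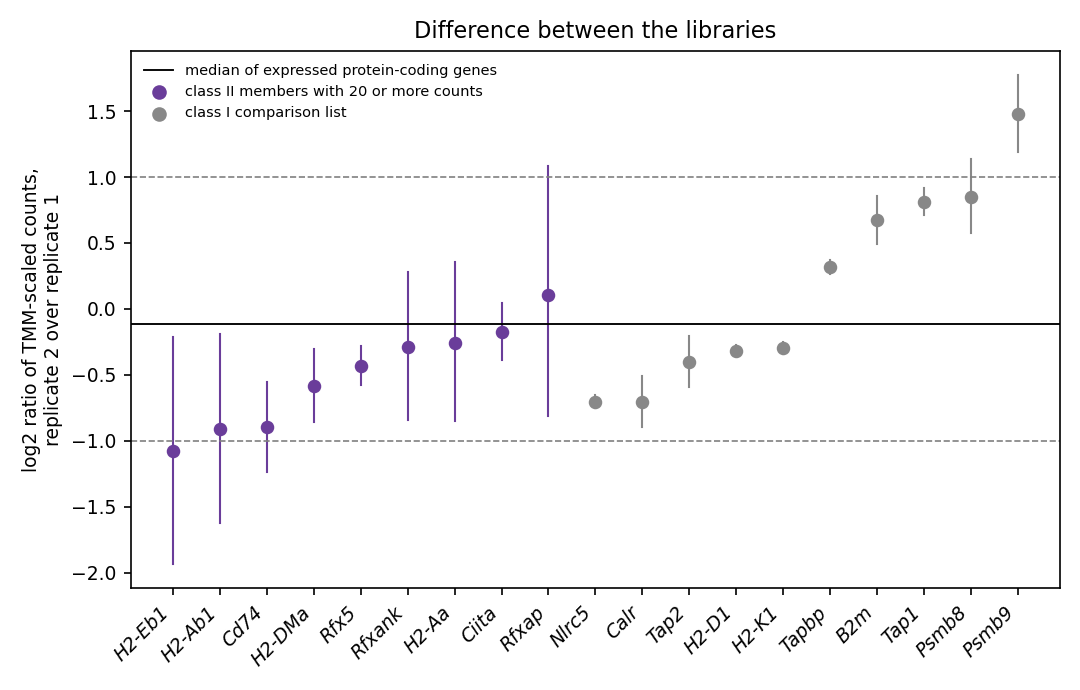
Log2 ratio of TMM-scaled counts, replicate 2 over replicate 1, for the 9 class II genes with 20 or more counts and for 10 class I genes; bars are 95% intervals for counting error, dashed lines mark 2-fold and the solid line is the median of expressed protein-coding genes (-0.12). Intervals of H2-Eb1, H2-Ab1, Cd74, H2-DMa and Rfx5 lie below that line, while class I genes lie on both sides of it; H2-Eb1 was at 0.042 in the second quantification.

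Markers that moved between the libraries stand beside these ratios. Of the 10 macrophage genes, 2 were 2-fold or more lower in replicate 2, Csf1r at -1.16 and Itgam at -1.24. The other genes of that list ranged from Spi1 at -0.76 to Adgre1 at 0.10, and the list median was -0.26. In the second quantification Csf1r was at -1.35 and Itgam at -0.86, the latter short of 2-fold. Of the dendritic cell list, 2 of 10 genes were at 1 TPM or more in both libraries, Itgax (4.15 and 4.08 TPM) and Batf3 (2.52 and 1.73 TPM), at -1.25 and -1.16. Others of the list with a ratio were Xcr1 at 0.64, Zbtb46 at 0.26 and Clec9a at -0.56. In the first quantification 7 of the 10 were under 1 TPM in both libraries, among them Flt3, Xcr1, Clec9a and Cd209a, the last at 0. Zbtb46 was at 0.80 and 1.45 TPM. In the second quantification 3 of the 10 reached 1 TPM in both, with Zbtb46 at 1.81 and 4.11 TPM. Xcr1 was at 0.65 and 2.37 TPM there. The summed TPM of the list was 8.67 in replicate 1 and 8.54 in replicate 2. None of 10 B cell genes reached 1 TPM in both libraries in the first quantification, and 4 did in the second, led by Fcer2a at 4.005 and 11.7 TPM. In the first, Blk and Pou2af1 had no count, Pax5 had 1 count, Cd22 had 29 and 53 counts and Fcer2a had 11 and 20. The B cell list summed to 0.68 and 1.4 TPM. Of 6 T cell genes, 0 reached 1 TPM in both libraries in the first quantification and 2 did in the second. Those were Cd3d, at 13.0 and 28.8 TPM, and Cd4, at 1.81 and 2.29 TPM. The part of other cell types in the class II values was not tested.

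The rest of the pathway was mostly well above the members. In the lists that follow, the share is of genes at 1 TPM or more in both libraries. It is to be read beside the 34.7% of protein-coding genes in the first quantification and 44.9% in the second. The further class II genes were near 0: none of 5 reached 1 TPM, and H2-Oa and H2-Ob, which encode the DM inhibitor DO, were at 0.03 and 0 TPM and at 0.04 and 0.16 TPM. H2-Ob alone was at 8.94 and 34.2 TPM in the second quantification. The I-E alpha pseudogene H2-Ea-ps had 0 and 1 count, and H2-Eb2 had none.

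Cofactors of the class II promoter were present in 10 of 11 cases. NF-Y was led by Nfya, at 33.4 and 59.1 TPM, with Nfyb at 4.02 and 9.10 TPM and Nfyc at 2.19 and 3.06 TPM. Creb1, which can occupy the X2 box, was at 17.3 and 56.4 TPM. The acetyltransferase gene Crebbp was at 20.3 and 31.3 TPM and Smarca4, a chromatin remodelling ATPase, at 28.3 and 31.2 TPM. The exception in the list was the acetyltransferase gene Kat2b, at 0.63 and 2.77 TPM. In the second quantification Kat2b was at 2.04 and 5.53 TPM, and all 11 cofactors reached 1 TPM in both libraries.

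Genes known to regulate Ciita were at 1 TPM or more in 13 of 14 cases. Irf1, which acts on the interferon-responsive promoter, was at 157 and 351 TPM. The receptor genes Ifngr1 (12.3 and 18.0 TPM) and Ifngr2 (3.93 and 9.21 TPM) and the kinase genes Jak1 (45.9 and 81.8 TPM) and Jak2 (83.0 and 181 TPM) were all present. Prdm1, which encodes the Ciita repressor Blimp-1, was at 11.2 and 21.4 TPM, and Zbtb32 was under 1 TPM in both. Irf4, at 1.81 and 2.86 TPM, and Zbtb32 stood below Ciita in both libraries.

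Endosomal proteases that cut antigen and the invariant chain were abundant, in 6 of 7 cases. Ctss, the protease that trims the invariant chain, was at 16.9 and 31.4 TPM, Ctsl at 67.1 and 98.0 TPM and Ctsb at 168 and 316 TPM. The exception, the thiol reductase gene Ifi30, was at 0.96 and 0.76 TPM, from 21 and 18 counts. In the second quantification Ifi30 was at 2.10 and 1.65 TPM, and all 7 genes reached 1 TPM in both libraries. In the first, Ifi30 was also the 1 gene of the list that was 2-fold lower in replicate 2, at -1.30 (interval -2.29 to -0.32), beside 5.59% of all genes. The annotation types Ifi30 as a processed transcript, so the share of protein-coding genes does not cover it. Of 6 genes of class II turnover and traffic 5 were at 1 TPM or more. March1, the ubiquitin ligase that removes class II from the surface, was at 0.32 and 0.99 TPM, below its relative March8 at 7.29 and 18.4 TPM. In the second quantification March1 was at 2.38 and 8.95 TPM and March8 at 13.9 and 36.3 TPM. All 6 genes reached 1 TPM in both libraries there. Sppl2a, which cleaves the invariant chain remnant, was at 22.8 and 83.6 TPM.

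MHC class I genes, which present peptides from the cytosol to CD8+ T cells, stood at higher levels. All 10 genes of that list were at 1 TPM or more in both libraries, with medians of 15.7 and 48.6 TPM beside 1.45 and 1.485 TPM for class II. The heavy chain genes H2-K1 (261 and 504 TPM) and H2-D1 (281 and 396 TPM) were over 100 times H2-Aa in each library of the first quantification. In the second, H2-K1 was at 189 and 391 TPM and H2-D1 at 206 and 333 TPM, beside 1.69 and 4.82 TPM for H2-Aa. There the gap was under 100 times in replicate 2. Nlrc5, the class I counterpart of Ciita, was at 53.7 and 79.9 TPM, beside 3.09 and 5.57 TPM for Ciita, and at 53.0 and 92.6 TPM beside 5.12 and 9.87 TPM in the second quantification. The lowest class I genes in replicate 1, Psmb9 (2.11 TPM) and Psmb8 (4.03 TPM), were within the class II range, and in replicate 2, at 11.7 and 12.0 TPM, they were above all of the members but H2-DMa. Tap2, which encodes a subunit of the peptide transporter, was also within the class II range in both libraries, at 5.06 and 7.44 TPM. So was Calr, at 13.42 and 15.75 TPM. The log2 ratios of Psmb9 and Psmb8 were 1.48 and 0.85, and that of Tap2 was -0.40. The class I list had a median of 0.0096 with 1 of 10 genes 2-fold higher and none lower. The difference between the lists was not tested.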

How the data were processed

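Ribosomal RNA-depleted RNA of the chromatin fraction was sequenced in 2 libraries of 1 group. Per the deposited text, the authors aligned to mm10 with GENCODE M21 and deposited expected counts, TPM and FPKM per gene and transcript, and a second set of estimated counts and TPM per transcript from a transcript index; the aligner, quantifier, versions and strand use were not given in the sources used here. Posterior SDs of the counts are also in the deposited tables. Rows with no annotated gene (0.409% and 0.277% of counts) stayed out of library sizes. Genes were named from GENCODE M21 and promoters from RefSeq; 86 genes had no row in the second quantification and were set to 0.

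Expressed means 1 TPM or more in both libraries. Expected counts were rounded and scaled with TMM (edgeR 4.0.16, R 4.3.3; factors 0.810 and 1.24) for genes with 20 or more counts in sum. DESeq2 1.42.0 size factors were an alternative. A 2-fold call recovered 200 of 200 genes simulated at 4-fold among 14442 and also called 156 unchanged ones. The changed genes were drawn from those with a summed count of 200 or more, and the simulated noise was counting (Poisson) noise only. The recovery therefore does not cover members with fewer counts, such as H2-Eb1. A chi-square of 489 per degree of freedom showed that the libraries were not copies. With 1 group no test between conditions was possible. The named genes were all 10 members, and genes of the pathway, class I and marker lists at 1 TPM or more in both libraries or paralogous to a member; others named were chosen after their values were seen. The members and lists were chosen with earlier results of these data known. Some genes of the lists are not reported here by name.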

Additional observations from a re-analysis of the deposited data

How the results depend on the processing

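No paired analysis was possible because there is 1 group. The members at 1 TPM or more numbered 9 at 0.5 TPM, 4 at 2 TPM, 8 in the second quantification and 10 when TPM was rescaled over protein-coding genes, and 6 to 7 without either replicate. The share of all protein-coding genes was taken only at 1 TPM, at 34.7% and, in the second quantification, 44.9%. At the other settings the member counts have no such share to be read beside. Rescaling raises the TPM of every detected protein-coding gene, members or not. Their median level of 1.47 TPM became 3.81 in the second quantification, 8.15 over protein-coding genes and 1.80 as FPKM, and 1.45 to 1.485 without either replicate. The count of members 2-fold lower, 1 for H2-Eb1 at -1.08, was 0 with library size only (-0.47), with TMM on protein-coding genes (-0.99), with 100 or more counts, a minimum that H2-Eb1 does not reach, and in the second quantification (0.042). The median log2 ratio of -0.43 became 0.18 with library size only, -0.61 in the second quantification, 0.15 on TPM + 1 and 0.22 on TPM + 0.1; the cause was not tested. The count of members 2-fold higher was 0 under all 6 alternatives. Retained intron shares moved beyond the spread for 5 of 9 members in the second quantification. Depth limits H2-DMb1, Rfxap, H2-Eb1 and H2-Ab1, with 5.47 to 37 counts per library.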
